A study of Mus musculus with 2 samples.

Results

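Chemokines are small secreted proteins that guide leukocytes, and their receptors are membrane proteins that signal through G proteins. The 54 chemokine genes described here, 35 ligands and 19 receptors, were taken by name from the 30153 genes of a mouse microarray: every gene whose name on the array is that of a Ccl, Cxcl, Cx3cl1 or Xcl1 ligand or of a Ccr, Cxcr, Cx3cr1 or Xcr1 receptor is a member. The rule itself uses no measured value, but the family and the marker and pathway lists below were picked with earlier results of these data known. The 54 genes are read by 70 of the 39390 probes, 12 of the genes by more than 1 probe, and none of their 79 spots was marked as an outlier. The study compared the RNA of mature hepatocytes (MHs) with that of Sox9+EpCAM- cells, which are hepatocytes that take on features of biliary cells during chronic injury. The MHs came from healthy livers and were cleared of dead cells on a Percoll gradient. FACS gave the Sox9+EpCAM- cells as GFP+EpCAM- cells from livers of Sox9-EGFP mice that were fed DDC, a compound that injures bile ducts and brings out a ductular reaction. According to the study's methods the healthy livers were also those of Sox9-EGFP mice, whose GFP reports Sox9 and so also marks cholangiocytes. The age of the mice, the number of mice behind each RNA and the days of feeding before the array are not given in the sources used here, and both samples are labelled male. Each group has 1 array with 1 dye, so the differences below have no replicate check and no test, and n = 1 for every level.

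In the liver, chemokines are made by hepatocytes, cholangiocytes, stellate cells, endothelial cells and macrophages, and they are known for drawing neutrophils, monocytes and lymphocytes into injured tissue. CXC ligands with the ELR motif act mainly on neutrophils through Cxcr2, the interferon-induced ligands Cxcl9, Cxcl10 and Cxcl11 act on T and NK cells through Cxcr3, and several CC ligands act on monocytes and macrophages through receptors such as Ccr2 and Ccr1. Many of these genes lie side by side in clusters and are known targets of NF-kB, interferon-activated factors and AP-1.

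Levels are given as spot intensity, in the scanner's units with background subtracted. The 75th percentile of intensity was 741 for MHs and 1110 for Sox9+EpCAM- cells, a ratio of 1.498, and each array was divided by its own before a difference was taken, so a gene of equal scaled level is 1.498-fold brighter for Sox9+EpCAM- cells. A log2 difference is Sox9+EpCAM- minus MH after this scaling. Where a probe was well above background on 1 array only, its fold is a bound, written as "at least", against whichever is brighter of its own signal and the dimmest signal counted as well above background on the other array, 27.8 for MHs and 18.4 for Sox9+EpCAM- cells. Where even that bound did not exceed 1-fold no fold is given, and the gene was entered as a log2 difference of 0 in shares, medians and plots. This held for 1540 of the 23417 genes read, that is, well above background on 1 array or both. The median SD of log2 intensity between spots of 1 probe was 0.08 on each array, which covers error within an array alone, and the scanner software's multiplicative error was 10%. As a check of the labels, Xist, transcribed from the inactive X chromosome, read 1940 in MHs and was not well above background in Sox9+EpCAM- cells, while Ddx3y, Kdm5d, Uty and Eif2s3y of the Y chromosome were well above background in Sox9+EpCAM- cells alone. These values go against the label male for the MHs, and the samples differed in sex-linked transcripts. Epcam, whose protein the sort selected against, had an intensity of 139 in MHs and 2770 in Sox9+EpCAM- cells, 13.3-fold higher, so its mRNA went against the name of the gate. All 8 hepatocyte markers, Alb and Hnf4a among them, were well above background on both arrays.

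Of the 35 ligand genes, 19 were well above background with both RNAs, 5 with that of Sox9+EpCAM- cells alone, 3 with that of MHs alone and 8 with neither. Among the 27 read on at least 1 array, each with a fold or a bound, 6 were higher in Sox9+EpCAM- cells by 4-fold or more (22.2%, beside 5.59% of all 23417 genes read) and 5 were lower by as much (18.5%, beside 5.57%). Counted by probe, 7 of 37 ligand probes read were at least 4-fold higher and 7 at least 4-fold lower, beside 6.24% and 5.74% of all 30072 such probes. Both shares lay above those of all genes, and the ligands parted in both directions. With normexp background correction 3 ligands were at least 4-fold higher and 3 lower, beside 621 higher and 660 lower over all genes. The median log2 difference of the 19 ligands measured on both arrays was 0.01, beside -0.19 for all genes measured on both, with 10 above 0 and 9 below; its sign turned with the processing, from -0.16 with the deposited table to 0.47 with a median taken over every probe of a gene. The higher genes were Cxcl1, Cxcl10, Cx3cl1, Ccl2, Ccl7 and Cxcl16, and the lower ones Ccl6, Cxcl9, Cxcl17, Ccl27a and Ccl12. No receptor was at least 4-fold higher (0%, beside 5.59% of all genes read). Of the 9 receptors read on at least 1 array, 2 were at least 4-fold lower (22.2%, beside 5.57%), Ccr6 among them at 4.02-fold. These counts are too small to set against those shares. Of these 9 receptors 6 have a fold or a bound, while Ccr7, Cxcr3 and Cxcr4 have none.

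**Figure D1:**
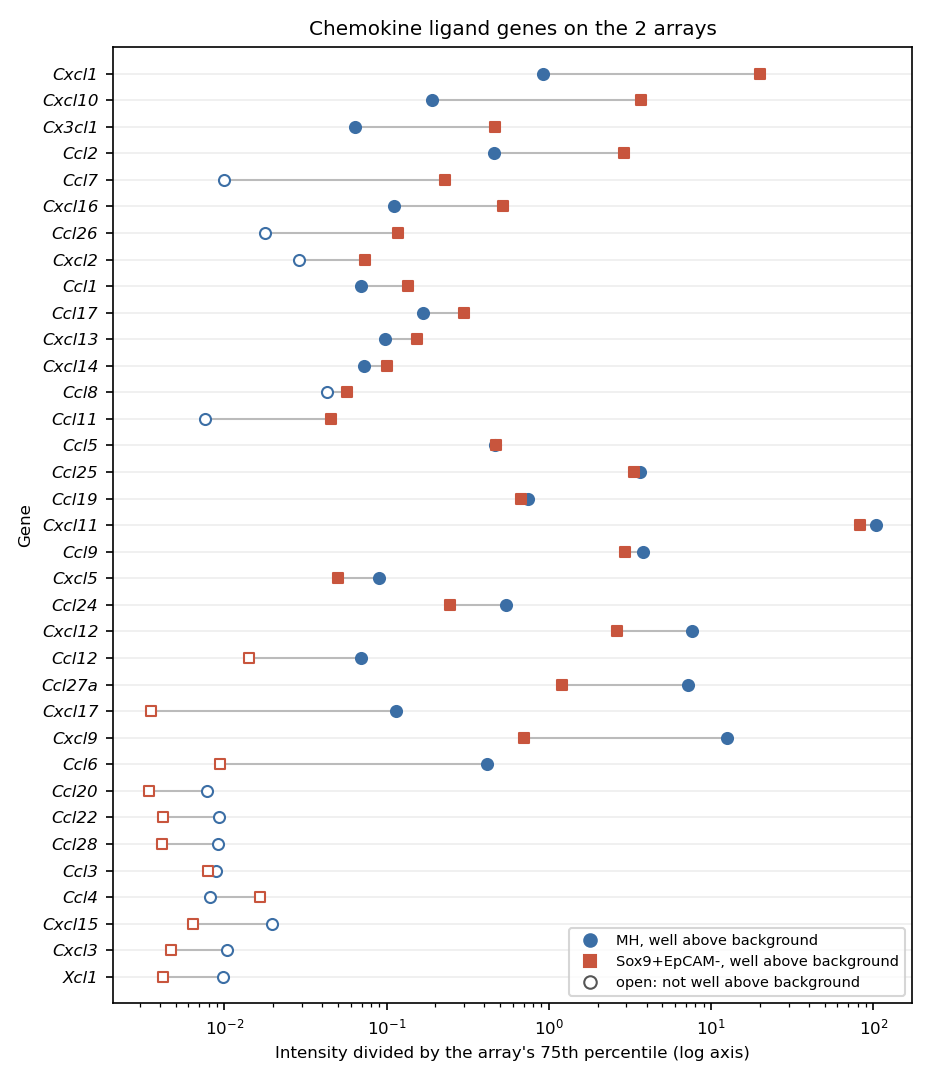
Scaled level of the 35 ligand genes on the 2 arrays: each row is a gene, the x axis is intensity divided by the 75th percentile of its array on a log axis, circles are MHs, squares are Sox9+EpCAM- cells and open symbols are not well above background. Genes are ordered by difference or bound, from the highest (Cxcl1, 21.99-fold higher) to the lowest (Ccl6, at least 25.2-fold lower), with the 8 genes above background on neither array at the bottom.

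Among the ELR ligands, which attract neutrophils, a single gene passed 4-fold. Cxcl1 had an intensity of 677 in MHs and 22300 in Sox9+EpCAM- cells (log2 difference 4.46, 21.99-fold), at a probe on chr5:91321845-91321904 (mm9). It was the largest increase among the ligands measured on both arrays. Its cluster neighbour Cxcl2, which signals through the same receptor, was not well above background in MHs (21.5) and had an intensity of 81.9 in Sox9+EpCAM- cells, at least 1.97-fold higher (a log2 bound of 0.98, and 0.21 with normexp background correction). Cxcl5, a further member of the cluster, had 66.9 in MHs and 55.9 in Sox9+EpCAM- cells (log2 difference -0.84). Cxcl3 and Cxcl15 were well above background on neither array. Of the 5 genes of this group and cluster that the name rule takes in, then, 3 had a fold or a bound. Of these 3, 1 was at least 4-fold higher (33.3%, beside 5.59% of all genes read), a count too small to set against that share. Cxcr2, the receptor that these ligands share, had an intensity of 99.4 in MHs and 143 in Sox9+EpCAM- cells (log2 difference -0.06).

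The ligands of Cxcr3 lie next to each other on chromosome 5, and their probes took different directions. Cxcl10 had an intensity of 141 in MHs and 4080 in Sox9+EpCAM- cells at the probe on chr5:92775781-92775840 (mm9), which is 19.3-fold higher or 4.27 on the log2 scale. The other Cxcl10 probe was not well above background in MHs (5.80) and had an intensity of 132 in Sox9+EpCAM- cells, at least 3.17-fold higher, so both probes were higher. Cxcl9 went the opposite way: its intensity was 9220 in MHs and 777 in Sox9+EpCAM- cells at the probe on chr5:92752796-92752855 (mm9), which is 17.8-fold lower or -4.15 on the log2 scale. Its other probe had 1270 in MHs and was not well above background in Sox9+EpCAM- cells (8.45), at least 103-fold lower. Both genes are classically induced by interferon-gamma, and Ifng itself, well above background in Sox9+EpCAM- cells only and near the threshold there, had no fold.

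The probes of Cxcl11, the remaining Cxcr3 ligand, were bright on both arrays and differed little. One probe had an intensity of 76600 in MHs and 91800 in Sox9+EpCAM- cells (log2 difference -0.32). These levels are near those of Gapdh (81900 and 102000), and whether Cxcl11 transcripts alone give them was not tested. This probe shares 20 bases with probes of 7 other genes, and 7.67% of all probes share such a stretch with a probe of another gene. The other Cxcl11 probe, which shares none, had 18600 and 30500, a log2 difference of 0.13. The accession of both probes was not matched to a gene of the RefSeq table. RefSeq places Art3 over Cxcl10 and Cxcl11, and whether these probes also bind an overlapping transcript was not tested. RefSeq genes also overlap other members, Ccl6, Cxcl16, Cxcl17, Cx3cl1, Ccr6 and Ccr10 among them, and this was not tested there either. Cxcr3 had an intensity of 18.7 in MHs, not well above background, and 27.8 in Sox9+EpCAM- cells, which gives no fold.

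The 250 bases before the transcription start of Cxcl1, Cxcl2, Cxcl10 and Cxcl9 are shown because these neighbours hold the largest difference in each direction among the CXC ligands measured on both arrays, with Cxcl2 as the neighbour of Cxcl1 whose bound was under 4-fold. The sequences are those of RefSeq (GRCm38.p6), written 5′ to 3′ on the strand of the gene, and capitals mark matches on either strand to the NF-kB site in 2 overlapping spellings (GGG, any 2 bases, TT, any base and CC, or GGG, any 3 bases and TTCC), to the interferon-stimulated response element or ISRE (GAAA, any 2 bases and GAAA) and to the AP-1 site (TGANTCA). They lie at chr5:90890995-90891244 on the plus strand, chr5:90903649-90903898 on the plus strand, chr5:92348890-92349139 on the minus strand and chr5:92328080-92328329 on the minus strand.
Cxcl1: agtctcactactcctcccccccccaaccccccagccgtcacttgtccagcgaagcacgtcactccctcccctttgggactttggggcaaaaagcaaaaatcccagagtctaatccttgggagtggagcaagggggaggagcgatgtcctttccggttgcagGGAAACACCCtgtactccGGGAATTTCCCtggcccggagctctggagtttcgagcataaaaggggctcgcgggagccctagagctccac
Cxcl2: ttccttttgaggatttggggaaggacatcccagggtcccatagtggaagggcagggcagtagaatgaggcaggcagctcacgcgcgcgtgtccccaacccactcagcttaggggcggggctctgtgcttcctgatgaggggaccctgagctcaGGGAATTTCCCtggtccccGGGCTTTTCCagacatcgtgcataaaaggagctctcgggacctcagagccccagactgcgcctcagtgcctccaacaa
Cxcl10: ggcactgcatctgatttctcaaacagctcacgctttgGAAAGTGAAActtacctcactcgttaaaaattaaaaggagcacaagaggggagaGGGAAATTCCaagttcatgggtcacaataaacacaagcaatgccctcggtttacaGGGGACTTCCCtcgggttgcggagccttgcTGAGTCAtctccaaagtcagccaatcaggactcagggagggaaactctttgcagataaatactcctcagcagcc
Cxcl9: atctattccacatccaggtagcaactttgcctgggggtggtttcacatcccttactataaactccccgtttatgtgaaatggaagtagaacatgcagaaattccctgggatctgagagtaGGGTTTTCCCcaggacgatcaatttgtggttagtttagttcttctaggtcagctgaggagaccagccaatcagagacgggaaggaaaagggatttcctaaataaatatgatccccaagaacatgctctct

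Counted back from the start, Cxcl1 held NF-kB spellings at -89 to -80 and, on both strands, at -71 to -61. Cxcl2 held them at -97 to -87 and at -78 to -69, with the same 10 letters GGGAATTTCC as Cxcl1, and so did Cxcl3, at -73 to -64, which was well above background on neither array. Cxcl10 held 2 NF-kB stretches, at -159 to -150 and at -104 to -94, an ISRE at -213 to -204 and an AP-1 match at -74 to -68, and was the only member whose promoter held all 3 kinds. Cxcl9 held 1 NF-kB spelling, at -130 to -121, and no ISRE or AP-1 match. Either NF-kB spelling was found in 7.004% of all 32851 promoters of the table, the ISRE in 2.98% and the AP-1 letters in 6.75%. The table held 43 promoters of 39 member genes, and 11 of them had an NF-kB spelling, 3 an ISRE and 5 an AP-1 match. Those with an NF-kB spelling included genes that were higher (Cxcl1, Cxcl10), lower (Cxcl9, Ccr6) and above background on neither array (Cxcl3, Ccl20, Ccr3). Cx3cl1, the other higher gene with a promoter in the table, held none of the letters searched.

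The CC ligands of Ccr2, which recruit monocytes from blood, also parted. Ccl2 is read by 10 spots of 1 probe (chr11:81850650-81850709, mm9), whose intensity ran from 302 to 367 with a median of 341.5 in MHs and from 2960 to 3450 with a median of 3260 in Sox9+EpCAM- cells. After scaling, the log2 difference was 2.68 ± 0.07 (SD over the 10 spots of 1 array pair, range 2.57 to 2.84), or 6.39-fold higher. That SD holds no variation between animals. Ccl7, its neighbour on chromosome 11 and likewise a monocyte attractant, was not well above background in MHs (7.38) and had an intensity of 254 in Sox9+EpCAM- cells, at least 6.10-fold higher. Ccl12, a mouse relative of Ccl2 in the same cluster, had 51.6 in MHs and was not well above background in Sox9+EpCAM- cells (15.7), at least 4.20-fold lower. Of the 6 genes of that cluster, Ccl1 differed by less than 4-fold, while Ccl8 and Ccl11 were well above background in Sox9+EpCAM- cells only, with bounds under 4-fold that leave the size of their difference unknown. Ccr2, the receptor of Ccl2, Ccl7 and Ccl12, was well above background on neither array.

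In the other chemokine cluster of chromosome 11, Ccl6 (chr11:83401997-83402056, mm9), a macrophage chemokine of the mouse, had an intensity of 310 in MHs and was not well above background in Sox9+EpCAM- cells (10.4), at least 25.2-fold lower. Its neighbour Ccl9, a related ligand of Ccr1, was bright on both arrays, 2810 and 3280, with a log2 difference of -0.36. Ccl3 and Ccl4, inflammatory chemokines of macrophages, were well above background on neither array, and Ccl5, which draws T cells, differed by less than 4-fold.

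Of the monocyte and macrophage ligands above, Ccl6 and Ccl12 were lower and Ccl2 and Ccl7 higher. Ccl9 differed by less than 4-fold, and Ccl3 and Ccl4 were well above background on neither array. Of 11 Kupffer cell and macrophage markers 8 were at least 4-fold lower, and the median log2 difference of the list was -2.78. Clec4f, the defining lectin of Kupffer cells, had an intensity of 6780 in MHs and 118 in Sox9+EpCAM- cells. The summed scaled level of the list was 32.2 in MHs and 14.2 in Sox9+EpCAM- cells, of which Csf1r alone gave 16.5 and 12.3. Without it the sums were 15.7 and 1.86. Csf1r differed by less than 4-fold and Cd68 was 14.4-fold higher. Vsig4, Cd163 and C1qc were not well above background in Sox9+EpCAM- cells. The part of these cells in the chemokine values was not tested, and in bulk RNA fewer cells of a type and less RNA per cell cannot be told apart.

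Both ligands that are made as transmembrane proteins and can be shed were higher. Cx3cl1 (fractalkine, chr8:97306185-97306244, mm9) had an intensity of 47.1 in MHs and 519 in Sox9+EpCAM- cells (log2 difference 2.88, 7.36-fold). Cxcl16 (chr11:70267780-70267839, mm9), which also serves as a scavenger receptor for oxidised lipoprotein, had 82.4 in MHs and 580 in Sox9+EpCAM- cells (log2 difference 2.23, 4.70-fold). Their receptors Cx3cr1 and Cxcr6 were each read by 2 probes, none of which was well above background on either array. With normexp background correction, which shrinks the differences of dim probes, the differences of Cx3cl1 (1.95), Cxcl16 (1.68) and Ccl7 (a bound of 1.16) were below 4-fold, as were those of Ccl12 (a bound of -1.11), Cxcl17 (a bound of -1.64) and Ccr6 (-1.55), while Cxcl1 (4.36), Cxcl10 (3.87), Ccl2 (2.48), Cxcl9 (-3.96) and Ccl27a (-2.51) remained past 4-fold. Ccl6 also did, with its bound reduced from -4.66 to -2.75.

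Among the homeostatic chemokines, which are made without inflammation, Cxcl12 had 2 probes and both were lower by less than 4-fold. The brighter one had an intensity of 5670 in MHs and 2930 in Sox9+EpCAM- cells (log2 difference -1.54), and the dimmer one 117 and 51.4, a difference of -1.77. Its receptor Cxcr4 was not well above background in MHs (7.95) and was near the threshold in Sox9+EpCAM- cells (20.6), with no fold. The scavenger receptor for Cxcl12, listed on the array as Cxcr7 (now Ackr3), was well above background on neither array.

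Ccl27a, an epithelial ligand of Ccr10, had an intensity of 5370 in MHs and 1330 in Sox9+EpCAM- cells at 1 probe and 2910 and 798 at another whose position overlaps the first, which are 6.05-fold and 5.46-fold lower. Another probe, elsewhere on chromosome 4, had 454 and 967, a log2 difference of 0.51. The probes thus disagreed. The last one shares 20 bases with a probe of Gm13308, RefSeq places Il11ra1 over Ccl27a and lists a related gene, Ccl27b, and which transcript each probe reads was not tested. Ccr10 had 42.3 in MHs and 236 in Sox9+EpCAM- cells, 3.72-fold higher, the largest increase among the receptors and just short of 4-fold. With normexp correction its log2 difference was 1.03 in place of 1.90. Ccl19, a ligand of Ccr7, was likewise read by probes that disagreed. The brightest had 552 and 749 (log2 difference -0.14), the next 315 and 664 (0.49), and the dimmest was not well above background in MHs (27.8) and had 202 in Sox9+EpCAM- cells, at least 4.85-fold higher. Its receptor Ccr7 had no fold.

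**Figure D2:**
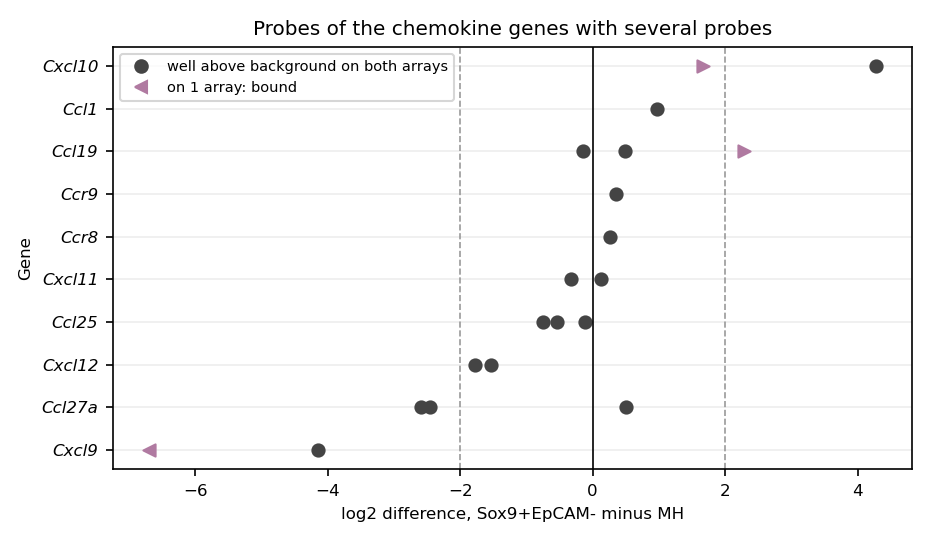
log2 difference of each probe (x axis, Sox9+EpCAM- minus MH) for the chemokine genes read by several probes, each row a gene: circles are probes well above background on both arrays, triangles are bounds of probes well above background on 1 array, and dashed lines mark 4-fold. The probes of Cxcl9, Cxcl10 and Cxcl12 lie on 1 side of 0 within each gene, and those of Ccl27a, Ccl19 and Cxcl11 on both sides.

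Cxcl17, a mucosal chemokine, had an intensity of 84.8 in MHs and was not well above background in Sox9+EpCAM- cells (3.92), at least 6.90-fold lower. Ccl25, which draws T cells to the gut through Ccr9, was bright on both arrays and differed little: 3 of its 4 probes were well above background, with log2 differences of -0.12, -0.75 and -0.54. Ccl26, not well above background in MHs (13.2), had an intensity of 130 in Sox9+EpCAM- cells, at least 3.12-fold higher. This bound is under 4-fold and leaves the size of the difference unknown. Ccl17, Ccl24, Cxcl13 and Cxcl14 were well above background on both arrays and differed by less than 4-fold. Ccl20, the ligand of Ccr6, was well above background on neither array, together with Ccl22, Ccl28, Ccl3, Ccl4, Cxcl3, Cxcl15 and Xcl1. These 8 genes are 22.9% of the ligands, beside 22.3% of all genes.

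Receptors were mostly dim. Of 19 genes, 10 were well above background on neither array (52.6%, beside 22.3% of all genes), namely Ccr1, Ccr2, Ccr3, Ccr4, Cxcr1, Cxcr5, Cxcr6, Cxcr7, Cx3cr1 and Xcr1. A further 5 were well above background with both RNAs, 3 with that of Sox9+EpCAM- cells alone (Cxcr3, Cxcr4 and Ccr7, none with a fold) and 1 with that of MHs alone. The 5 measured on both arrays had a median log2 difference of 0.26, and this sign turned with normexp correction, where it was -0.17. Ccr6, the receptor of Ccl20 on dendritic and Th17 cells, had an intensity of 267 in MHs and 99.4 in Sox9+EpCAM- cells (log2 difference -2.01). At 4.02-fold lower, it was just past 4-fold. Ccr8, found on regulatory and Th2 cells, had 39.1 and 69.9 at its brighter probe, a log2 difference of 0.26. In the receptor cluster of chromosome 9, Ccr1, Ccr2, Ccr3, Cxcr6 and Xcr1 were above background on neither array, and Ccr9, which homes T cells to the gut, differed by less than 4-fold.

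**Figure D3:**
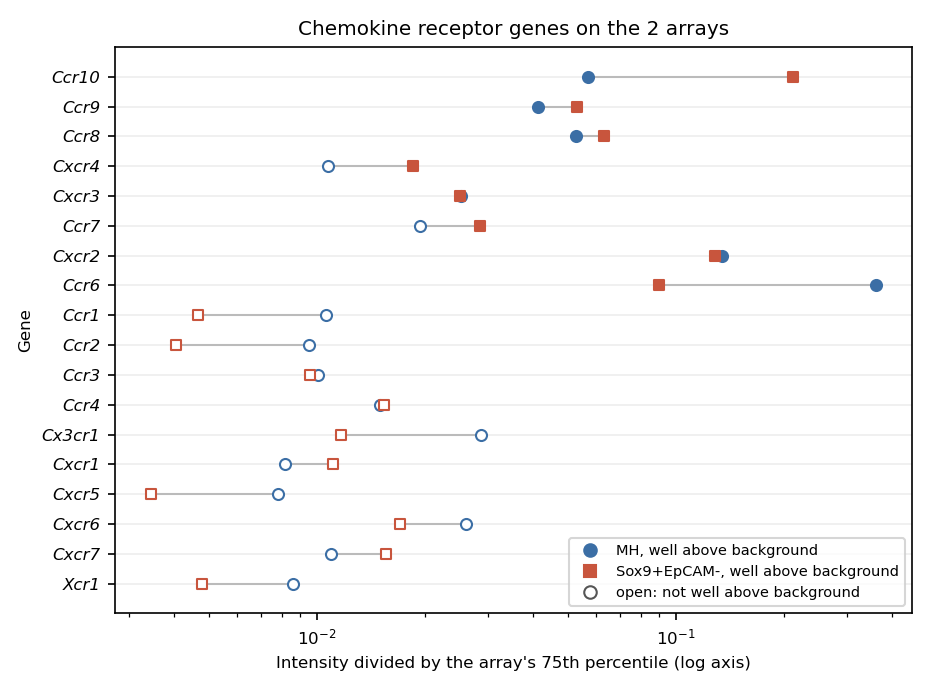
Scaled level of 18 of the 19 receptor genes on the 2 arrays, with the axis and symbols as for the ligands: circles are MHs, squares are Sox9+EpCAM- cells and open symbols are not well above background. Ccr6 lies 4.02-fold lower in Sox9+EpCAM- cells, Ccr10 lies 3.72-fold higher, and 10 receptors have open symbols on both arrays.

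Many of the receptors at background here are leukocyte genes, and other leukocyte markers were read on both arrays. The summed scaled level of 7 leukocyte markers was 7.41 in MHs and 1.72 in Sox9+EpCAM- cells (3.97 and 1.65 without Laptm5, the brightest in MHs). Their median log2 difference was -1.39, although Ptprc, the gene of CD45, had intensities of 195 and 248, a log2 difference of -0.24. Neutrophils carry Cxcr2, and 4 of 7 neutrophil markers (S100a8, S100a9, Retnlg and Ngp) were well above background on neither array. The other 3, well above background on both arrays, were Ly6g (8330 in MHs and 2220 in Sox9+EpCAM- cells, 5.62-fold lower), Csf3r (69400 and 86600) and Camp (99.9 and 131), and the list had a median of -0.26 and summed scaled levels of 105.1 and 80.2. Csf3r carried most of these sums, which were 11.4 and 2.15 without it. T and NK cell markers had a median of -0.22, with summed scaled levels of 0.78 and 0.77, and Cd3d and Cd3g were above background on neither array. Of 4 B cell markers 2, Ms4a1 among them, were above background on neither array, and the list had a median of -0.21 and summed levels of 0.11 and 0.08. The study's methods give the sort as GFP+EpCAM- and list antibodies to CD45 and CD31 among those for cell isolation, and a legend of the study has CD31-CD45- cells gated before GFP+EpCAM- cells. Such a gate would remove leukocytes and endothelial cells from the Sox9+EpCAM- cells, while the MHs were not sorted. Whether it was used for the sample on the array is not given in the sources used here. The part of these cells in the receptor values was not tested.

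Other cell types and states that express chemokines also differed between the arrays. Of 10 immediate early genes, 9 were at least 4-fold higher, with a median log2 difference of 4.58 and a summed scaled level of 35.1 in MHs and 388 in Sox9+EpCAM- cells (16.5 and 283 without Jun, the brightest); Fos had intensities of 1609 and 58870. Of the 9 stellate cell and fibroblast markers read 4 were at least 4-fold higher (Col1a1, Col1a2, Col3a1 and Eln), and the list of 10 had summed levels of 12.3 and 49.4 (1.42 and 35.8 without Dcn) and a median of 1.11, while Lrat, of quiescent stellate cells, was at least 7.70-fold lower and Pdgfrb was above background on neither array. Sinusoidal endothelial markers, of which 7 were read, were at least 4-fold lower for 4 genes, with a median of -3.02 and summed levels of 9.13 and 2.24, and Lyve1 was above background on neither array. Pecam1, the gene of CD31, had intensities of 669 and 594 (log2 difference -0.75). Cholangiocyte markers had a median of 0.53 and summed levels of 2.27 and 48.9 (1.92 and 6.52 without Spp1). Within the list Spp1, the gene of osteopontin, was 121.6-fold higher (258 in MHs and 47000 in Sox9+EpCAM- cells), while the log2 difference was -0.23 for Krt7, 0.42 for Krt19 and -1.001 for Cftr, and Sox9 was at least 1.45-fold higher. Hepatocyte markers had a median of -1.02 and summed levels of 1116 and 558. The parts of these cells and of the early response in the chemokine values were not tested. The MHs were not sorted and the livers of the Sox9+EpCAM- cells were injured, and Xist and the Y-linked genes differed as well, so sorting, injury, cell state and sex cannot be told apart from each other.

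**Figure D4:**
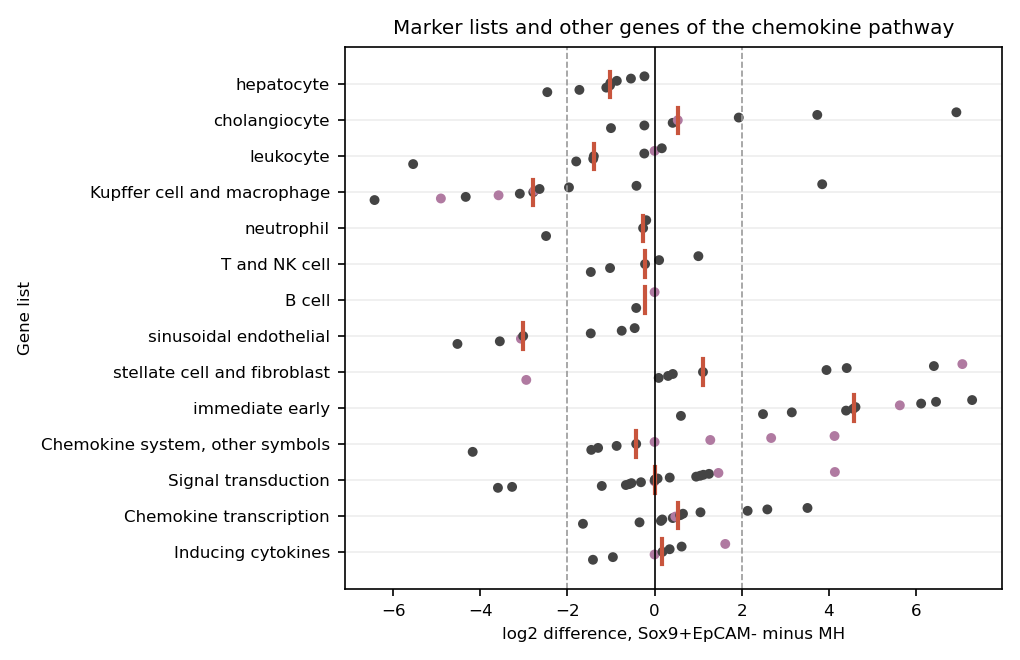
log2 difference (x axis, Sox9+EpCAM- minus MH) of each gene of 10 marker lists and of 4 lists of other chemokine pathway genes, each row a list: dark points were well above background on both arrays, light points are bounds (at 0 where there is no fold), short vertical lines are list medians and dashed lines mark 4-fold. The immediate early genes lie to the right with a median of 4.58, and the macrophage and sinusoidal endothelial markers to the left with medians of -2.78 and -3.02.

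The wider chemokine pathway was read through 54 further genes, of which 46 were read on at least 1 array, 6 were at least 4-fold higher (13.0%, beside 5.59% of all genes read) and 3 at least 4-fold lower (6.52%, beside 5.57%), and 8 were above background on neither array. Among regulators of chemokine transcription, 3 of 12 read were at least 4-fold higher and none was 4-fold lower. Nfkbiz, an inducible co-regulator of NF-kB targets, had intensities of 780 in MHs and 13300 in Sox9+EpCAM- cells, 11.4-fold higher. Nfkb2 had 351 and 3160, 6.01-fold higher, and Rela, the main activating NF-kB subunit, 155 and 1020, 4.39-fold higher. None of the cytokines that induce chemokines passed 4-fold, and Tnf, Il1a, Il6 and Il17a were well above background on neither array.

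Among genes of the chemokine system with other symbols, Cklf, a chemokine-like factor, had an intensity of 729 in Sox9+EpCAM- cells and was not well above background in MHs (7.49), at least 17.5-fold higher. Cmklr1, the receptor of chemerin, had 266 in Sox9+EpCAM- cells and 6.70, not well above background, in MHs, at least 6.39-fold higher. The decoy receptor that clears inflammatory CC ligands, listed as Ccbp2 (Ackr2), went the other way, with 574 in MHs and 47.6 in Sox9+EpCAM- cells, 18.1-fold lower. In signal transduction, Rgs2, which ends G protein signals, was at least 17.6-fold higher (an intensity of 733 in Sox9+EpCAM- cells, not well above background in MHs), whereas Rac2 and Was, which drive the actin cytoskeleton of leukocytes, were 12.1-fold and 9.65-fold lower. The list of 20 signalling genes had 18 that were read and a median of 0.01.

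**Figure D5:**
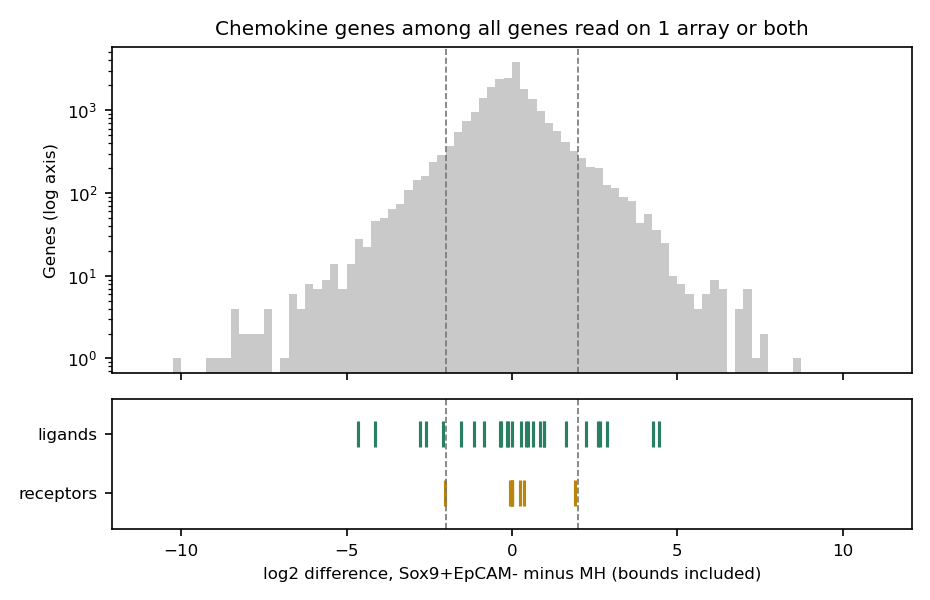
Distribution of the log2 difference (x axis, Sox9+EpCAM- minus MH, bounds included) over all 23417 genes read on 1 array or both, as a histogram with a log axis of gene counts, above the values of the 27 ligands and of 8 of the 9 receptors read, each a tick, with genes that have no fold at 0. Dashed lines mark 4-fold: 6 ligands lie beyond it on the right, and 5 ligands and Ccr6 beyond it on the left.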

How the data were processed

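RNA of 2 samples, 1 per group by the labels, was hybridised to 1-colour (Cy3) arrays; both arrays were on 1 slide and in 1 scan per the file headers. The authors deposited the spot intensity written by Feature Extraction 10.7.3.1, with background subtracted and no normalization between arrays, with mean and local background intensity. The deposited table of ratio values was the intensity divided by the array's median over 43020 spots (SD of the log2 factor 0.0018).

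Outlier spots were dropped, which left 39390 probes. Spots of a probe were averaged on the log2 scale after division by each array's 75th percentile, and the probe with the highest mean level stood for its gene. A difference of 4-fold was the rule of size, and no test was possible. Array depth is limited by 27523 (MH) and 32158 (Sox9+EpCAM-) spots well above background; 0 were saturated. Probe positions are mm9. Of 54 gene names 53 are current RefSeq symbols, and 63 of 70 probe accessions matched. The members were found by gene name alone, but the family and the lists were chosen with earlier results of these data known. The text names every gene with a probe past 4-fold, the 5 ligands and 5 receptors with the highest mean level, the main ligand-receptor pairs and pathway genes past 4-fold; other members and markers appear as examples or only in counts, sums and medians, and 1 member that this rule selects is not reported here by name. Fold bounds, normexp (limma 3.58.1, R 4.3.3, offset 50), other scalings, probe rules and thresholds were alternatives. The calculation was checked on simulated data. Python 3.11.15 with pandas 2.3.3 was used.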

Additional observations from a re-analysis of the deposited data

How the results depend on the processing

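With 1 array per group no array could be left out, and no slide effect could be fitted. No paired analysis was possible because there was only 1 array in each group. Quantile normalization, scaling by Gapdh or by the median of well-measured probes, the deposited table, the median over all probes and keeping outlier spots gave the same 6 higher and 7 lower member genes; Gapdh and the deposited table moved the median of all genes by -0.13 and -0.18. No called member changed sign under any alternative. Normexp correction left 3 ligands higher, 3 lower and 1 receptor lower (621 higher and 660 lower over all genes), with medians of -2.10 for macrophage, -1.67 for sinusoidal endothelial and 0.40 for stellate cell and fibroblast markers. Genes above background on both arrays alone gave 2 ligands and 1 receptor lower, 3 other pathway genes higher, 758 higher over all genes, and medians of 1.17 for cholangiocyte and -2.24 for sinusoidal endothelial markers. Without bounds, Ccl11 and Ccl26 also passed 4-fold, as calls over all genes rose from 1309 to 1949 higher and from 1304 to 1416 lower, and the cholangiocyte median was 1.93; a looser background flag, chosen after seeing the data, gave the same 8 higher and 7 lower members (1949 and 1707 over all genes), a cholangiocyte median of 1.93 and a sinusoidal endothelial median of -2.24. At 2-fold, 1 receptor (Ccr10) was higher, with 13 other pathway genes higher and 8 lower (3319 and 3918 over all genes). At 10-fold, 2 ligands were higher and 2 lower, 1 receptor was lower and 3 other pathway genes were higher (363 and 344 over all genes). Signal over background limits the 12 member genes measured on 1 array to bounds, of which 3 receptors have no fold, and leaves 18 well above background on neither array.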
